A study of Mus musculus with 9 samples.

Results

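Respiratory complex I (NADH:ubiquinone oxidoreductase) was followed in mouse liver through the 56 genes of the count table whose symbols begin with Ndufa, Ndufb, Ndufc, Ndufs, Ndufv or mt-Nd, with pseudogene symbols ending in -ps left out. They are 56 of 18954 genes in the table. The symbols divide into 41 nuclear subunit genes, 8 Ndufaf assembly factor genes and 7 mitochondrially encoded mt-Nd genes. The nuclear class follows the symbols, so it also holds 2 genes not counted as subunits of the enzyme and 2 extra gene copies. After a filter on low counts, 55 of the 56 were tested, among 14004 genes in all. The exception was Ndufb4c, at 1 to 8 counts per liver.

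The data compare 5 livers of mice heterozygous for a GSDMD-NT knock-in and for Alb-cre (GSDMD-NT Alb-cre) with 4 livers of mice heterozygous for the GSDMD-NT knock-in alone (control), all at day 42. GSDMD-NT is the pore-forming N-terminal part of gasdermin D, and Alb-cre expresses Cre recombinase from the albumin promoter, which is active in hepatocytes. Both groups therefore carry the knock-in. The series text describes doxycycline-induced cell death as a route to liver fibrosis, but the sample labels give no doxycycline treatment for individual livers. No liver carried Alb-cre alone, so effects of Cre and of GSDMD-NT cannot be told apart. The labels do not state that each liver is a separate animal, so p-values refer to the spread among these samples, part of which may be technical.

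Complex I is the entry point of electrons from NADH into the mitochondrial respiratory chain, and it pumps protons across the inner membrane as it passes them to ubiquinone. Its matrix arm holds the N module, which oxidises NADH, and the Q module, which reduces ubiquinone. The membrane arm is built around the 7 mitochondrially encoded proteins, which form the proton path. The core subunits are conserved in bacteria, and the accessory subunits around them are needed for assembly and stability in mammals. Assembly factors help build the complex and are not part of the finished enzyme. In hepatocytes, which are rich in mitochondria, complex I reoxidises the NADH made by fatty acid oxidation and the citric acid cycle.

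Totals were 13361093 to 16823506 counts per liver. Gsdmd measured 42.2, 50.8, 31.3, 37.8 and 42.7 TMM-scaled CPM in GSDMD-NT Alb-cre livers, against 41.6, 34.4, 31.7 and 47.6 CPM in controls, and the groups overlapped. The sources used here do not say whether inserted GSDMD-NT sequence is part of this count, so it is no check of genotype. Alb averaged 43042 ± 5751 CPM in the GSDMD-NT Alb-cre livers and 54199 ± 6074 CPM in controls (log2 fold change -0.33 ± 0.20 SE, adjusted p = 0.271). All 6 hepatocyte markers examined were counted in every liver, and their summed level, most of it Alb, was 50365 to 65707 CPM in the GSDMD-NT Alb-cre livers and 68402 to 84743 CPM in controls. Of these 6, Ttr (transthyretin) fell and the other 5 did not pass the test. Their directions were mixed, with log2 fold changes of -0.43 for Apoa1 and -0.51 for Serpina1c, 0.39 for the transcription factor Hnf4a and 0.43 for the urea cycle enzyme Cps1. In bulk liver, fewer cells of a type and less RNA per cell cannot be told apart. The part of these marker differences in the results below was not tested. Markers of skeletal muscle, another tissue rich in complex I transcripts, were near 0 (0.466 to 0.923 CPM summed over the 2 of 6 markers in the table in GSDMD-NT Alb-cre livers, and 0.852 to 1.39 CPM in controls). Of brown fat markers, a tissue likewise rich in such transcripts, 4 of 6 were in the table, and they summed to 7.19 to 52.9 CPM in the GSDMD-NT Alb-cre livers and 41.5 to 86.3 CPM in controls. Nearly all of that was Elovl3, a fatty acid elongase that liver also expresses (log2 fold change -0.73 ± 0.43, adjusted p = 0.254), and the 2 tested markers were not called. Of 5 tested B and plasma cell markers, 3 fell and 1 rose (all 6 markers summed to 2.13 to 3.69 CPM in the GSDMD-NT Alb-cre livers and 5.81 to 7.06 CPM in controls). Of endothelial markers 2 of 6 rose (63.5 to 168 CPM in the GSDMD-NT Alb-cre livers and 75.3 to 115 CPM in controls), and of Kupffer cell and macrophage markers 1 of 6 rose (96.1 to 126 CPM in the GSDMD-NT Alb-cre livers and 76.1 to 124 CPM in controls). No tested marker of stellate cells, neutrophils, cholangiocytes or pancreas was called. Beside all these marker counts, 9.07% of all genes tested were called lower and 9.25% higher. The part of these cells and tissues in the results was not tested either. Controls 2 and 4 and GSDMD-NT Alb-cre 5 stood apart for complex I genes, as described below.

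Most nuclear subunit genes were lower in GSDMD-NT Alb-cre livers, a single assembly factor gene was lower, and no mt-Nd gene passed the threshold. With edgeR's quasi-likelihood test and Benjamini-Hochberg adjustment over all 14004 genes, 24 of 40 tested nuclear subunit genes fell at an adjusted p under 0.05 and 0 rose. These 24 include Ndufa4, now assigned to complex IV, and the extra gene copy Ndufs6b. The others were 2 of 7 core subunits and 20 of 29 accessory subunits. The background of genes called lower was 9.07% of all genes tested, that of genes called higher was 9.25%, and that of both together was 18.3%. Of the assembly factor genes, 1 of 8 fell, a share of 12.5%. Of the mt-Nd genes, 0 of 7 was called, although 4 were lower at an unadjusted p under 0.05, as were 17.3% of all genes tested, and 0 were higher, beside 17.6%. DESeq2 called 2 mt-Nd genes lower, beside 1653 of all genes, and limma-voom called 0, beside 1254 of all genes. The median log2 fold change was -0.44 for nuclear subunits, -0.17 for assembly factors and -0.40 for mt-Nd genes, beside 0.01 over all genes tested. The mt-Nd median was -0.23 without control 4, 0.0049 without controls 2 and 4, and -0.10 with the length correction described below. The assembly factor median was -0.11 without control 4 and -0.05 with that correction.

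**Figure D1:**
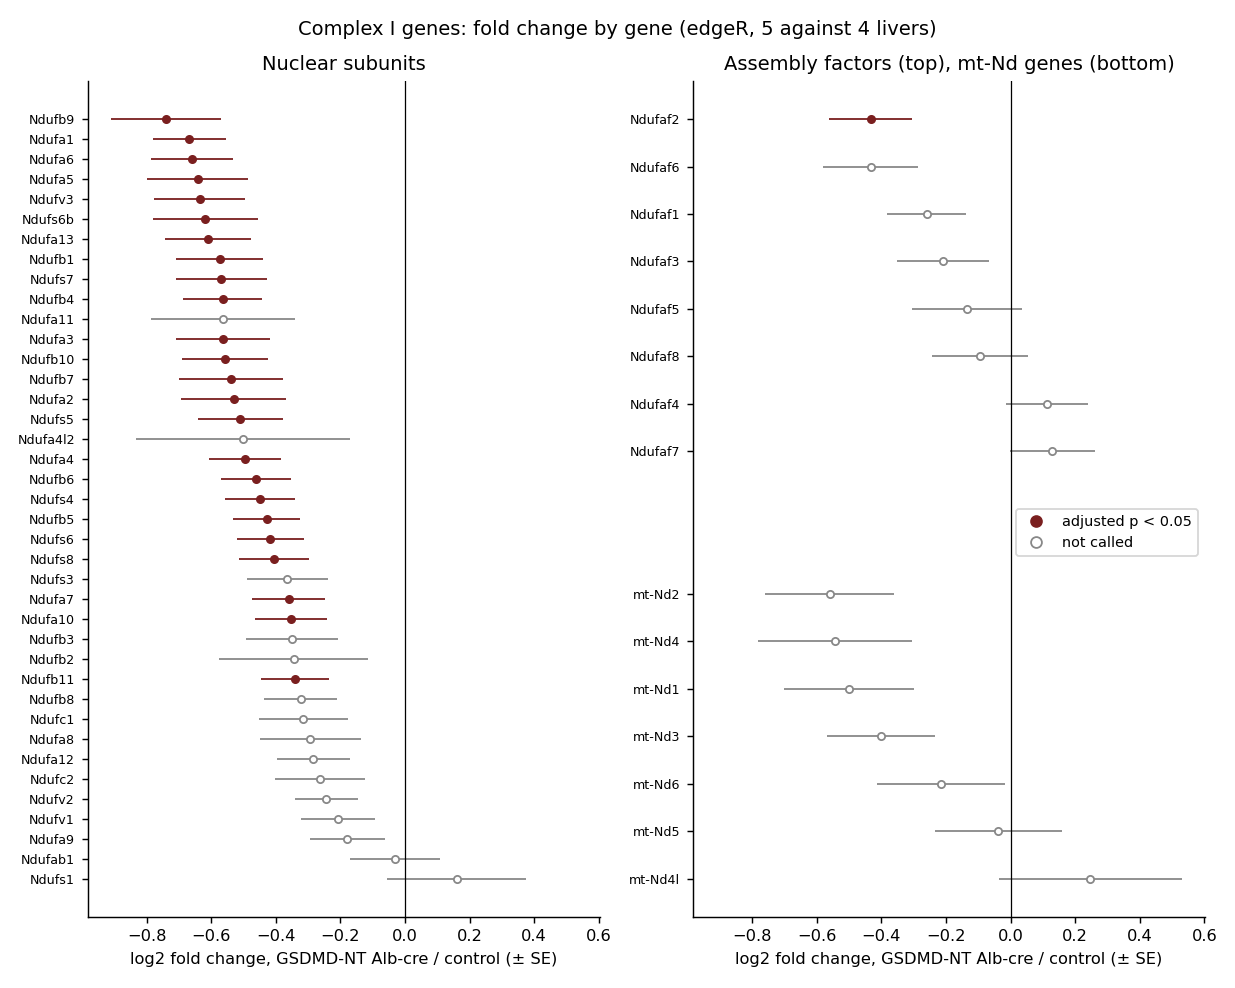
Log2 fold change of GSDMD-NT Alb-cre over control livers (x axis, ± SE, edgeR) for tested complex I genes, with nuclear subunits on the left and assembly factors and mt-Nd genes on the right. Filled points passed an adjusted p of 0.05: 24 nuclear subunits and Ndufaf2. Of the nuclear subunits shown, all but Ndufs1 lie left of 0.

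Among the nuclear subunits, 39 of 40 log2 fold changes were negative, and they ranged from -0.74 (Ndufb9) to 0.16 (Ndufs1). The levels of called members were 21.0% to 40.1% lower, on the fitted scale. In 24 of the 40 genes every GSDMD-NT Alb-cre liver was below every control, while 9.22% of all genes tested showed that separation. Of these 24 genes, 23 were called and the other was Ndufv2. The opposite separation was seen in 0 of the 40 and in 9.23% of all genes.

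The smallest adjusted p belonged to Ndufa1, a small membrane arm subunit needed for assembly of the complex, on the X chromosome. Ndufa1 measured 49.8, 49.7, 48.1, 48.5 and 47.8 CPM across the GSDMD-NT Alb-cre livers, against 66.1, 75.6, 74.9 and 93.3 CPM in controls. The 5 GSDMD-NT Alb-cre values lay close together and all below the controls, among which control 4 was highest. The log2 fold change was -0.67 ± 0.11 (adjusted p = 0.00492).

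Ndufa6, a matrix arm subunit that holds the mitochondrial acyl carrier protein, measured 97.1, 85.9, 109.8, 102 and 91.8 CPM across the GSDMD-NT Alb-cre livers, against 138, 167, 129.9 and 179 CPM in controls (log2 fold change -0.66 ± 0.13, adjusted p = 0.00785). Ndufa13, a membrane arm subunit also known as GRIM-19, measured 117, 100.3, 112, 120.4 and 103 CPM across the GSDMD-NT Alb-cre livers, against 142, 182, 146 and 205 CPM in controls (log2 fold change -0.61 ± 0.13, adjusted p = 0.0114). In both genes the groups did not overlap, and controls 2 and 4 were the highest livers. Ndufb4, in the membrane arm, measured 40.1, 37.1, 41.2, 38.7 and 33.5 CPM across the GSDMD-NT Alb-cre livers, against 45.9, 61.6, 52.9 and 65.0 CPM in controls (log2 fold change -0.56 ± 0.12, adjusted p = 0.0114). Ndufv3, an accessory subunit beside the NADH-oxidising end, measured 70.1, 75.4, 76.2, 78.2 and 64.6 CPM across the GSDMD-NT Alb-cre livers, against 95.5, 119.7, 93.1 and 145 CPM in controls (log2 fold change -0.64 ± 0.14, adjusted p = 0.0125). Again no GSDMD-NT Alb-cre liver reached the lowest control.

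Ndufb9, a membrane arm subunit, had the log2 fold change of largest size among the members, -0.74 ± 0.17 (adjusted p = 0.0148). It measured 16.6, 15.2, 16.0, 18.5 and 13.4 CPM across the GSDMD-NT Alb-cre livers, against 20.9, 32.3, 20.2 and 33.1 CPM in controls. Controls 2 and 4 were well above controls 1 and 3, which were nearer to the GSDMD-NT Alb-cre livers. Ndufb9 shares 202 identical bases with Gm49356, which the table also counts, so reads of this stretch could have been split between them.

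**Figure D2:**
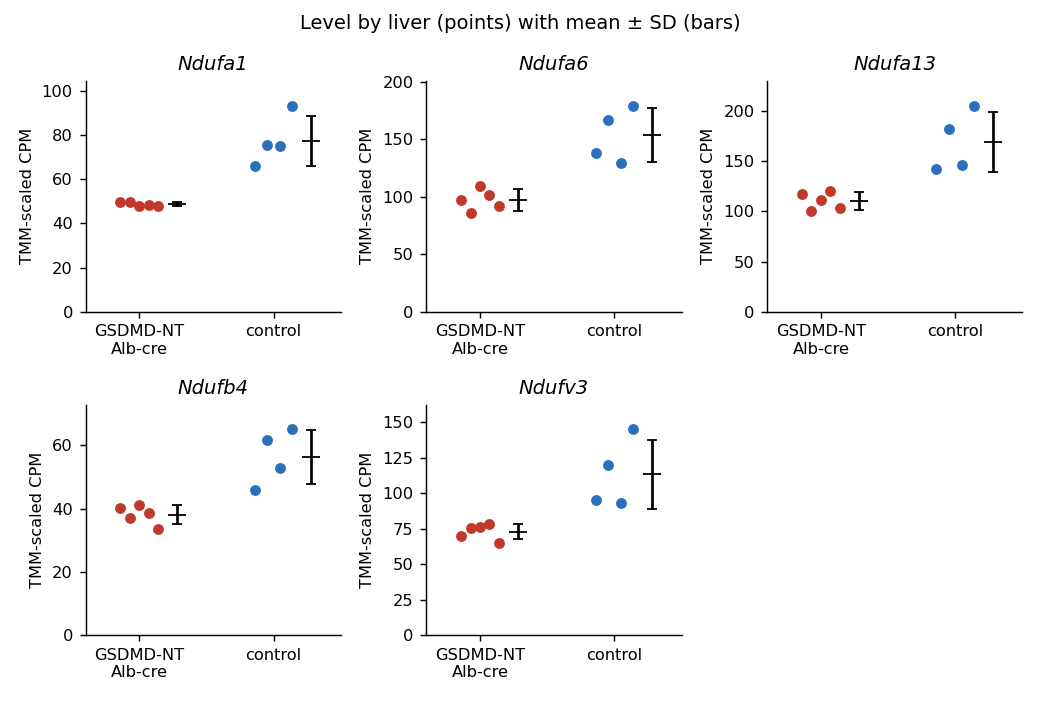
TMM-scaled CPM per liver (points) with mean ± SD (bars) for 5 nuclear subunits with small adjusted p. In all 5 panels each GSDMD-NT Alb-cre liver is below each control.

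Of the matrix arm core subunits 2 of 7 fell, and of the accessory subunits of both arms 20 of 29 fell, a difference that was not tested. The core genes also had longer transcripts, with a median of 1312 bases beside 704 for the accessory genes. The N module core showed no call. Ndufv1, which binds NADH and the flavin, averaged 173 ± 16.5 CPM in the GSDMD-NT Alb-cre livers and 199 ± 14.2 CPM in controls (log2 fold change -0.21 ± 0.11, adjusted p = 0.218). Ndufv2, which carries an iron-sulfur cluster, showed a log2 fold change of -0.24 ± 0.10 (adjusted p = 0.101), and its GSDMD-NT Alb-cre values of 78.0 to 91.8 CPM lay just below the control values of 93.2 to 101 CPM. Ndufs1, the largest core subunit, with several iron-sulfur clusters, measured 85.9, 59.4, 117, 82.5 and 89.1 CPM across the GSDMD-NT Alb-cre livers, against 99.9, 67.6, 92.0 and 51.0 CPM in controls. The groups overlapped over nearly their whole range (log2 fold change 0.16 ± 0.22, adjusted p = 0.628), and for this gene control 4 was the lowest liver.

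In the Q module core, Ndufs7 and Ndufs8 fell. Ndufs7, which holds the iron-sulfur cluster that passes electrons to ubiquinone, averaged 86.5 ± 7.99 CPM in the GSDMD-NT Alb-cre livers and 128 ± 26 CPM in controls (log2 fold change -0.57 ± 0.14, adjusted p = 0.0191). Ndufs8, another iron-sulfur protein, averaged 61.5 ± 2.63 CPM in the GSDMD-NT Alb-cre livers and 81.5 ± 9.88 CPM in controls (log2 fold change -0.41 ± 0.11, adjusted p = 0.0255). Ndufs3, another Q module core subunit, showed a log2 fold change of -0.36 ± 0.12 (adjusted p = 0.06), and its reads may be shared with Gm12251, which matches it at 98.6% over 792 bases.

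Of the 9 matrix arm accessory subunits, 7 fell. Besides Ndufa6 and Ndufv3 these were Ndufa5 (log2 fold change -0.64), Ndufa2 (-0.53), Ndufs4 (-0.45), Ndufs6 (-0.42) and Ndufa7 (-0.36). Ndufs4 supports the N module, and its loss in mice causes a Leigh-like encephalopathy. It measured 52.0, 46.4, 48.0, 48.5 and 44.2 CPM across the GSDMD-NT Alb-cre livers, against 56.8, 69.7, 61.3 and 73.1 CPM in controls, with no overlap (adjusted p = 0.0179). Ndufs6 binds zinc at the base of the N module. In Ndufa2 the groups overlapped, with GSDMD-NT Alb-cre livers at 57.6 to 79.6 CPM and controls at 75.0 to 128 CPM. Ndufa9, near the ubiquinone site, showed a log2 fold change of -0.18 ± 0.12 (adjusted p = 0.298). For Ndufa12, in the same arm, it was -0.28 ± 0.11 (adjusted p = 0.0991).

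Of the 20 membrane arm accessory subunits, 13 fell. Their log2 fold changes ranged down to that of Ndufb9, and besides the members above they were Ndufb1 (-0.57), Ndufa3 (-0.56), Ndufb10 (-0.56), Ndufb7 (-0.54), Ndufs5 (-0.51), Ndufb6 (-0.46), Ndufb5 (-0.43), Ndufa10 (-0.35) and Ndufb11 (-0.34). Ndufb11 matches Gm6444, which is also counted, at 96.9% over 456 bases, so their reads may not have been kept apart. Its call was kept in 1 of the 9 fits that left out 1 liver. Ndufb7, Ndufb10, Ndufs5 and Ndufa8 are the subunits of this arm on its intermembrane space side that carry disulfide-bonded helices. Of these 4, Ndufa8 was not called (log2 fold change -0.29 ± 0.16, adjusted p = 0.205), and its control values of 122, 173, 113 and 189 CPM reached both below and above the GSDMD-NT Alb-cre values of 115 to 133 CPM. The other 6 not called, Ndufa11, Ndufb2, Ndufb3, Ndufb8, Ndufc1 and Ndufc2, had log2 fold changes of -0.56, -0.34, -0.35, -0.32, -0.31 and -0.26. Ndufa11 matched several called members in size but varied more between livers (SE 0.22, adjusted p = 0.0962). Ndufb2 was counted at only 2.61 to 3.86 CPM in the GSDMD-NT Alb-cre livers and 2.92 to 5.29 CPM in controls, and it shares 145 identical bases with Gm42420, which is also counted.

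The remaining nuclear members are the carrier protein gene Ndufab1 with 2 genes not counted as subunits of the enzyme (Ndufa4 and Ndufa4l2) and 2 extra gene copies (Ndufs6b and Ndufb4c). Ndufab1, the mitochondrial acyl carrier protein, which sits in both arms and also serves fatty acid synthesis, averaged 18.2 ± 1.20 CPM in the GSDMD-NT Alb-cre livers and 18.6 ± 3.72 CPM in controls (log2 fold change -0.03 ± 0.14, adjusted p = 0.894), and it has near-identical copies that are counted too. Ndufa4, now assigned to complex IV, measured 186, 180.1, 206, 195 and 178 CPM across the GSDMD-NT Alb-cre livers, against 235, 285, 259 and 287 CPM in controls, without overlap (log2 fold change -0.49 ± 0.11, adjusted p = 0.0133). Its paralog Ndufa4l2 was scarce, at 1.5 to 2.90 CPM in the GSDMD-NT Alb-cre livers and 1.54 to 4.84 CPM in controls (log2 fold change -0.50 ± 0.33, adjusted p = 0.304). Ndufs6b, a processed copy that matches Ndufs6 at 96.6% over 348 bases, fell beside it, with 6.02 ± 0.571 CPM in the GSDMD-NT Alb-cre livers and 9.24 ± 1.64 CPM in controls (log2 fold change -0.62 ± 0.16, adjusted p = 0.0238). Reads of both genes may not have been kept apart. Ndufb4c is identical to Ndufb4 over 390 bases.

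The members differed widely in level. Per kilobase of transcript, nuclear members ran from 1.32 CPM (Ndufb2) to 411 CPM (Ndufa4) in GSDMD-NT Alb-cre livers, with a median of 73.4. In controls they ran from 1.68 to 579 CPM for the same genes, with a median of 101. As Ndufa4 is not counted as a subunit, the highest subunit was Ndufa6, at 255 CPM per kb in GSDMD-NT Alb-cre livers and 402 in controls. Assembly factor levels lay in the lower part of that range, at 4.49 to 21.3 CPM per kb in GSDMD-NT Alb-cre livers, with a median of 10.8, and 4.94 to 25.3 CPM per kb in controls, with a median of 12.2. The mt-Nd genes other than mt-Nd3 and mt-Nd4l lay far above both, at 2194 to 5773 CPM per kb in the GSDMD-NT Alb-cre livers and 2548 to 8514 CPM per kb in controls.

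Log2 fold changes of the assembly factors lay between -0.43 and 0.13. Ndufaf2, a paralog of Ndufa12 that holds its place during assembly, measured 11.6, 11.1, 11.8, 11.4 and 11.8 CPM across the GSDMD-NT Alb-cre livers, against 13.1, 14.8, 15.4 and 19.1 CPM in controls. The GSDMD-NT Alb-cre livers were nearly equal and all below the controls (log2 fold change -0.43 ± 0.13, adjusted p = 0.0367). The call was lost in 8 of the 9 fits that left out 1 liver. Ndufaf6, which acts in the assembly of the mt-Nd1 module, showed a log2 fold change of the same size with more spread, -0.43 ± 0.15 (adjusted p = 0.0582), and its groups did not overlap either.

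Ndufaf1, a member of the membrane arm assembly complex, measured 25.5, 21.0, 27.3, 22.5 and 27.7 CPM across the GSDMD-NT Alb-cre livers, against 33.3, 26.8, 31.4 and 27.3 CPM in controls (log2 fold change -0.26 ± 0.12, adjusted p = 0.153). Ndufaf3 and Ndufaf4 work as partners on the Q module. Ndufaf3 showed a log2 fold change of -0.21 ± 0.14 (adjusted p = 0.316). Ndufaf4, the most abundant of the 8 in CPM, measured 39.8, 34.9, 50.01, 41.0 and 33.0 CPM across the GSDMD-NT Alb-cre livers, against 35.7, 38.8, 35.6 and 36.9 CPM in controls, so the controls lay inside the GSDMD-NT Alb-cre range (log2 fold change 0.11 ± 0.13, adjusted p = 0.558). Ndufaf5 modifies Ndufs7, with Ndufaf8 as its partner, and their log2 fold changes were -0.14 ± 0.17 (adjusted p = 0.606) and -0.09 ± 0.15 (adjusted p = 0.686). Ndufaf7, a mitochondrial methyltransferase, averaged 16.5 ± 1.80 CPM in the GSDMD-NT Alb-cre livers and 15.1 ± 2.02 CPM in controls (log2 fold change 0.13 ± 0.13, adjusted p = 0.508).

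The mt-Nd genes were highly expressed, and most were lower in GSDMD-NT Alb-cre livers on average without passing the threshold. mt-Nd2 measured 5953, 5044, 7447, 5039 and 6480.4 CPM across the GSDMD-NT Alb-cre livers, against 6921, 8922, 8118 and 11389 CPM in controls (log2 fold change -0.56 ± 0.20, adjusted p = 0.0679). GSDMD-NT Alb-cre 3 exceeded control 1, and the other 4 GSDMD-NT Alb-cre livers were below every control. mt-Nd1 measured 4688, 4369, 5869, 4489 and 4766 CPM across the GSDMD-NT Alb-cre livers, against 5192, 6801, 5884 and 9479 CPM in controls (log2 fold change -0.50 ± 0.20, adjusted p = 0.0985). Again only GSDMD-NT Alb-cre 3 exceeded control 1. mt-Nd4 measured 3872, 3387, 4276, 3734 and 3484 CPM across the GSDMD-NT Alb-cre livers, against 3586, 6099.9, 3896 and 8291 CPM in controls (log2 fold change -0.54 ± 0.24, adjusted p = 0.128). For mt-Nd4, controls 1 and 3 lay within the GSDMD-NT Alb-cre range, and the log2 fold change was 0.0049 once controls 2 and 4 were left out.

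The neighbours mt-Nd5 and mt-Nd6 lay nearer to 0. mt-Nd5 measured 5354, 3825, 5360.0, 3725 and 5135 CPM across the GSDMD-NT Alb-cre livers, against 3995, 4952, 4125 and 6146 CPM in controls, with the groups interleaved (log2 fold change -0.04 ± 0.20, adjusted p = 0.91). mt-Nd6, the mt-Nd gene encoded on the opposite strand, measured 1372, 1061, 1207, 956 and 1098 CPM across the GSDMD-NT Alb-cre livers, against 1069, 1439, 956 and 1825 CPM in controls (log2 fold change -0.22 ± 0.20, adjusted p = 0.465). Libraries were strand-specific, but the sources used here do not say whether the counting used strand, so reads of mt-Nd6 and of transcripts opposite it may not have been kept apart. The signs of both genes turned in some settings: with the length correction described below they were 0.021 for mt-Nd5 and 0.065 for mt-Nd6.

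The 2 shortest genes, mt-Nd3 and mt-Nd4l, were counted far below their neighbours. Per kilobase, the median level of mt-Nd3 was 62.2 CPM in the GSDMD-NT Alb-cre livers and 84.1 CPM in controls, and that of mt-Nd4l was 36.5 CPM in the GSDMD-NT Alb-cre livers and 31.2 CPM in controls. The median of mt-Nd1 was 4899 CPM per kb in the GSDMD-NT Alb-cre livers and 6627 CPM per kb in controls. mt-Nd3 and mt-Nd4l lie in a stretch of the mitochondrial genome that has near-identical copies on chromosome 1. The copy of mt-Nd4l, Gm10222, is identical over 294 bases, the copy of mt-Nd4, Gm28439, over 876 of its 1378 bases, and the copy of mt-Nd3, Gm28438, over 345 bases with 1 mismatch. The first 33 bases of mt-Nd3 and its copy are shown because they hold that only mismatch, T3C (mt-Nd3 has the first base, its copy the second, position counted from 1 at the 5′ end of the gene), in capitals. They were read from the GENCODE transcripts of build GRCm38 (chrM:9459-9491, plus strand, and chr1:24613087-24613119, minus strand).
mt-Nd3: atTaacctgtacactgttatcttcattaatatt
Gm28438: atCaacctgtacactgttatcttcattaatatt
mt-Co2, mt-Atp6 and mt-Co3, which lie in the same stretch and have copies of 100% identity there, were low as well. Values of mt-Nd3 and mt-Nd4l are therefore uncertain, and so in part are those of mt-Nd4. mt-Nd3 measured 19.8, 21.1, 21.6, 27.8 and 23.2 CPM across the GSDMD-NT Alb-cre livers, against 21.3, 29.2, 29.4 and 40.0 CPM in controls (log2 fold change -0.40 ± 0.17, adjusted p = 0.113). mt-Nd4l measured 10.8, 6.86, 10.96, 6.77 and 19.9 CPM across the GSDMD-NT Alb-cre livers, against 8.21, 8.65, 10.6 and 9.86 CPM in controls (log2 fold change 0.25 ± 0.28, adjusted p = 0.565). GSDMD-NT Alb-cre 5 was the highest of all 9 livers, and without it the log2 fold change was -0.072. In the same liver mt-Co2, mt-Atp6 and mt-Co3 and the chromosome 1 copies were also the highest of their group, and mt-Atp8 was the lowest.

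**Figure D3:**
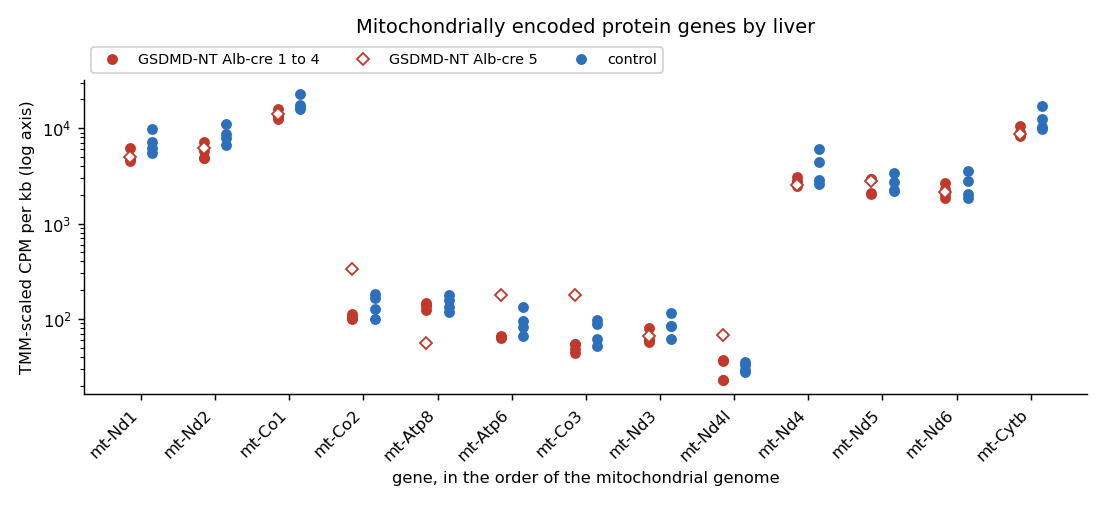
TMM-scaled CPM per kb of the 13 mitochondrially encoded protein genes (y axis, log scale) by liver, in genome order, with GSDMD-NT Alb-cre 1 to 4 as filled points, GSDMD-NT Alb-cre 5 as open diamonds and controls beside them. The block from mt-Co2 to mt-Nd4l lies far below the genes on either side, and GSDMD-NT Alb-cre 5 lies outside the range of its group at mt-Co2, mt-Atp8, mt-Atp6, mt-Co3 and mt-Nd4l but within it at mt-Nd3.

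Class means were compared by liver. For each liver the mean of log2(CPM + 1) over a class was set against the mean of the controls. Nuclear subunits stood at -0.40, -0.45, -0.32, -0.31 and -0.49 in GSDMD-NT Alb-cre livers, against -0.16, 0.10, -0.14 and 0.20 in controls. All 5 GSDMD-NT Alb-cre livers were below the lowest control, and the controls fell into a higher pair (2 and 4) and a lower pair (1 and 3). The difference of means was -0.40, with a pooled SD of 0.13. The mt-Nd genes stood at -0.22, -0.49, -0.11, -0.44 and -0.12 in GSDMD-NT Alb-cre livers, against -0.33, 0.06, -0.16 and 0.43 in controls, a difference of -0.28 with a pooled SD of 0.25 and 2 of 5 GSDMD-NT Alb-cre livers below the lowest control. Without mt-Nd3 and mt-Nd4l this difference was -0.34, with a pooled SD of 0.28. Assembly factors stood at -0.11, -0.28, -0.10, -0.06 and -0.22 in GSDMD-NT Alb-cre livers, against 0.008, -0.04, -0.04 and 0.08 in controls. All 5 GSDMD-NT Alb-cre livers were below the lowest control here too, GSDMD-NT Alb-cre 4 only narrowly. The difference of assembly factor means was -0.15, with a pooled SD of 0.08. The nuclear mean minus the mt-Nd mean differed by -0.12 between the groups, with a pooled SD of 0.19. For this measure 1 of 5 GSDMD-NT Alb-cre livers was below the lowest control. Whether the nuclear and mitochondrial subunits changed unequally was not tested.

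**Figure D4:**
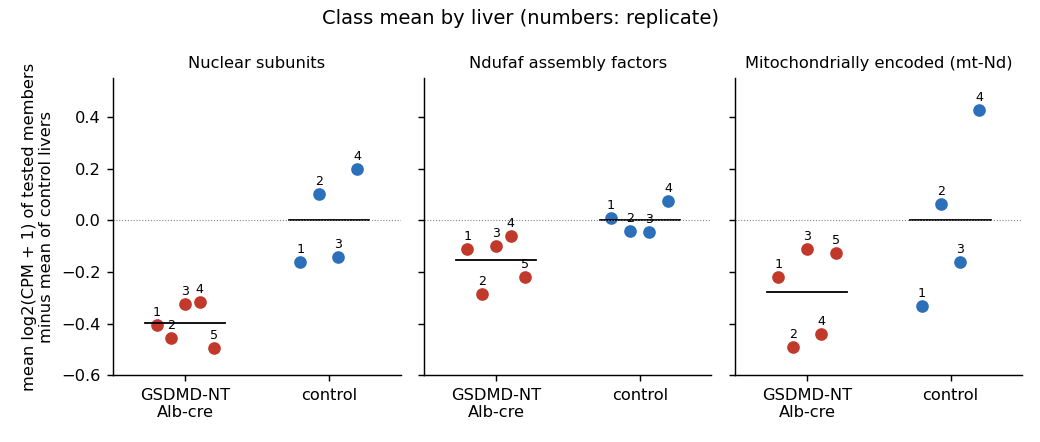
Mean log2(CPM + 1) of the tested members of each class by liver, minus the mean of the controls (y axis), with replicate numbers beside the points and group means as lines. Nuclear subunits of GSDMD-NT Alb-cre livers lie at -0.31 to -0.49, below all controls. Assembly factors of GSDMD-NT Alb-cre livers lie at -0.06 to -0.28, also below all controls. The mt-Nd means of both groups overlap, and control 4 is highest in every panel.

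The count of called nuclear subunits depended on single livers. It was 8 without control 2, 13 without control 4, 13 without GSDMD-NT Alb-cre 1 and 16 without GSDMD-NT Alb-cre 5, beside 24 with all livers. Of all genes, 1270 were called lower with all livers, and fewer in every fit that left out 1 liver. The part of this general loss of calls in the counts above was not tested. Without both controls 2 and 4 it was 0, with 37 of 40 log2 fold changes still negative and a median of -0.26. In that setting only 29 of all genes were called higher and 44 lower. The 8 nuclear members called in each of the 9 fits that left out 1 liver were Ndufa1, Ndufa4, Ndufa6, Ndufa13, Ndufb1, Ndufb4, Ndufb6 and Ndufv3.

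Transcript length moved with these differences. The median transcript length of the tested nuclear subunits was 810 bases, beside 2505 bases over all genes tested. Of the nuclear subunits up to 500 bases 5 of 5 fell, beside 11.7% of all genes of that length. From 500 to 1000 bases 16 of 23 fell, beside 17.2% of all genes. From 1000 to 2000 bases 2 of 8 fell, beside 12.5%, and from 2000 to 4000 bases 1 of 4 fell, beside 6.68%. Over 4000 bases, where no nuclear subunit lay, 5.13% of all genes fell. Across the 40 genes, Spearman's rho of log2 fold change with length was 0.59, a description of points that share the same 9 livers, and it was 0.24 over 13836 genes. The median level of genes up to 1000 bases minus that of genes over 4000 bases, relative to the mean of all livers, was -0.17, -0.02, -0.23, -0.11 and -0.22 (log2) in GSDMD-NT Alb-cre livers, against 0.09, 0.24, 0.02 and 0.34 in controls, so that controls 2 and 4 stood out here too.

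When a smooth curve of level on length was removed from each liver, 6 nuclear subunits were called lower, beside 7.73% of all genes, and 0 were called higher, beside 7.39%. They were Ndufa1 (log2 fold change -0.39, adjusted p = 0.0201), Ndufa13 (-0.45, 0.0266), Ndufs4 (-0.37, 0.0308), Ndufb4 (-0.36, 0.0399), Ndufb9 (-0.49, 0.0427) and Ndufv3 (-0.38, 0.0431), all called without the correction as well. The median over the class was -0.24, and 39 of 40 log2 fold changes were again negative. What the length relation reflects in these livers was not tested.

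**Figure D5:**
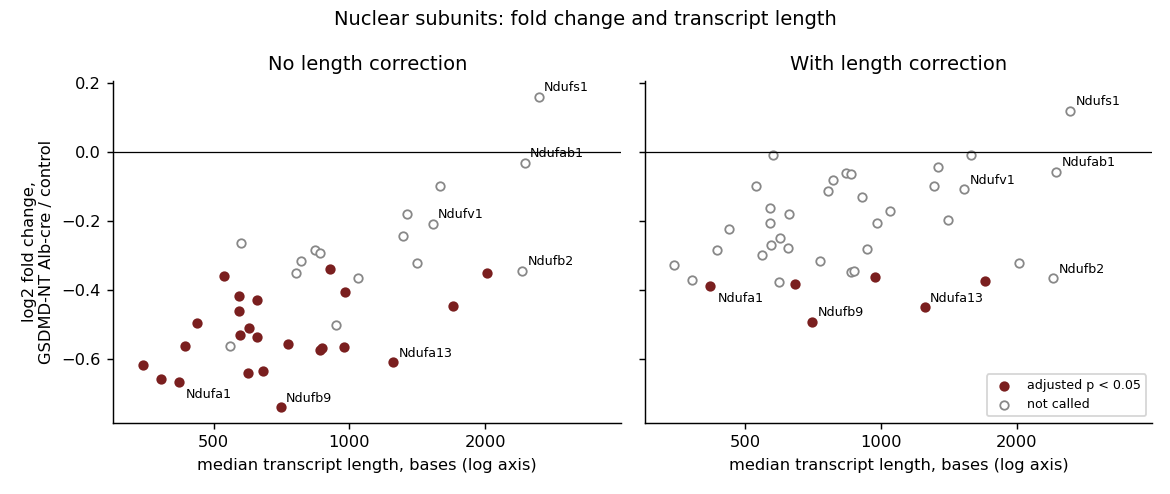
Log2 fold change of GSDMD-NT Alb-cre over control (y axis) against median transcript length (x axis, log scale) for the 40 tested nuclear subunits, without the length correction on the left and with it on the right. Filled points passed an adjusted p of 0.05, 24 on the left and 6 on the right. Of the 4 genes over 2000 bases, on the left Ndufs1 lies at 0.16 and Ndufab1 at -0.03. The others, Ndufa10 (called) and Ndufb2, lie at -0.35 and -0.34.

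Promoter sequence was examined because the members share a function and many fell together. RefSeq promoters of build GRCm38.p6, 250 bases before to 50 after the gene start, were matched by symbol for 41 of the 56 members. Both strands were searched for letters bound by factors known to act at respiratory genes, and matches of different motifs may overlap. AAGATGGC, a YY1 motif, was present in 7 of 34 nuclear subunit promoters (20.6%) and in 3.19% of 27025 genes. It was present in 4 of 21 called members (19%) and 3 of 13 members not called (23.1%), so the shares were close in called and uncalled members. CCGGAAG, an ETS motif, was in 4 of 34 (11.8%, all genes 9.93%), and GGGCGG, an Sp motif, in 15 of 34 (44.1%, all genes 38.2%). A match of letters is a description, not a bound site. The promoters of Ndufs7, which fell, and Ndufa9, which was not called, are shown because both hold the YY1 letters (in capitals) just after the gene start. They lie at chr10:80249199-80249498 on the plus strand and chr6:126849095-126849394 on the minus strand.
Ndufs7: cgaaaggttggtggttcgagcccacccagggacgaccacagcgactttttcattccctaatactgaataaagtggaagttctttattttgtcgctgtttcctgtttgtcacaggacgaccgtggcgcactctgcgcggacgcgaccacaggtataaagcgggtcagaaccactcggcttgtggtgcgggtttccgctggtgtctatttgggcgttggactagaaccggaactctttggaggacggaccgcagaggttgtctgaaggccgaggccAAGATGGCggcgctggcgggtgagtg
Ndufa9: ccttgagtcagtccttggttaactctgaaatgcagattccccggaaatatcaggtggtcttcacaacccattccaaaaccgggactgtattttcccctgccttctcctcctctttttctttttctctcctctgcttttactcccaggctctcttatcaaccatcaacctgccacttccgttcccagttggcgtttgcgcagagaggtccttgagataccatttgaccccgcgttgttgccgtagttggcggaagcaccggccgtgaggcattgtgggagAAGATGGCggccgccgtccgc

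Other genes of the pathway were read from lists of related complexes. Beside the counts below, 9.07% of all genes tested were called lower and 9.25% higher. Among complex I assembly factors not named Ndufaf, 1 of 14 fell and 0 rose. The gene that fell was Dmac2, a membrane arm assembly factor, at 38.2 ± 4.40 CPM in the GSDMD-NT Alb-cre livers and 60.1 ± 14.1 CPM in controls (log2 fold change -0.65 ± 0.16, adjusted p = 0.0175). This call was lost without control 2 or control 4 and with the replicate block, a fit with the liver's replicate number as a term. The block leaves out GSDMD-NT Alb-cre 5, and the labels state no pairing by that number. The median of the 14 was 0.11. With the length correction 2 were called lower, Dmac2 (adjusted p = 0.0246) and Oxa1l (0.0351), and 1 was called higher, Lyrm2 (0.0443). Of complex II genes, 2 of 8 fell, Sdhb, the iron-sulfur subunit (-0.48 ± 0.15, adjusted p = 0.0448), and the assembly factor Sdhaf4 (-0.55 ± 0.16, adjusted p = 0.0339). Both calls were lost with the length correction (adjusted p = 0.183 for Sdhb and 0.177 for Sdhaf4), with the replicate block, with no low-count filter, and without GSDMD-NT Alb-cre 1, 4 or 5 or control 1, 2 or 4.

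Nuclear genes of complexes III, IV and V were called lower in 4 of 9, 9 of 12 and 12 of 17 cases, with medians of -0.40, -0.47 and -0.49 and 0 called higher. Examples are Uqcr10 of complex III (-0.52 ± 0.12, adjusted p = 0.0145), Cox6c and Cox4i1 of complex IV (-0.64 ± 0.13, adjusted p = 0.00939, and -0.67 ± 0.14, adjusted p = 0.0103) and Atp5mpl of the ATP synthase, complex V (-0.49 ± 0.10, adjusted p = 0.0101). With the length correction 0, 2 and 1 genes of these complexes were called. With each liver left out in turn the counts ran from 1 to 5, 2 to 9 and 4 to 12, and without controls 2 and 4 they were 0. The lowest came without control 2 for complex III, without GSDMD-NT Alb-cre 1 or 5 or control 2 or 4 for complex IV, and without control 4 for complex V. The subunit genes Atp5a1 and Atp5b, which form the catalytic head of the ATP synthase, had log2 fold changes of 0.0003 and 0.15 (adjusted p = 0.999 and 0.562).

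Of the other mitochondrially encoded genes, 1 of 8 fell, the rRNA mt-Rnr2 (-0.77 ± 0.22, adjusted p = 0.0338). The call was lost with the length correction (adjusted p = 0.0563), with the replicate block, and without GSDMD-NT Alb-cre 1, 4 or 5 or control 2, 3 or 4. Mitochondrially encoded protein and rRNA genes together held 5.38, 4.23, 6.46, 5.35 and 5.18% of the counts in GSDMD-NT Alb-cre livers, against 5.76, 6.88, 6.35 and 9.55% in controls, and control 4 was the highest.

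Among 21 tested genes of mitochondrial transcription and biogenesis, 2 fell and 3 rose. The share that fell, 9.52%, was near the 9.07% of all genes tested, and 9.25% of all genes rose. The coactivator Ppargc1b fell to 5.17 ± 1.90 CPM in the GSDMD-NT Alb-cre livers, against 10.7 ± 0.788 CPM in controls (log2 fold change -1.04 ± 0.25, adjusted p = 0.018), and Polg2, the accessory subunit of the mitochondrial DNA polymerase, fell as well (-0.76 ± 0.19, adjusted p = 0.0203). Polg, its catalytic subunit (0.52 ± 0.13, adjusted p = 0.0183), the helicase Twnk (0.45 ± 0.12, adjusted p = 0.022) and the coactivator Pprc1 (0.88 ± 0.24, adjusted p = 0.03) rose. With the length correction Polg (adjusted p = 0.0746) and Pprc1 (0.0653) were no longer called, and the coactivator Ppargc1a was called lower (0.0392), so that 3 fell and 1 rose. Without control 4 none of the 21 was called. Tfam, the packaging and transcription factor of mitochondrial DNA, showed a log2 fold change of 0.01 ± 0.12. Of 14 iron-sulfur cluster assembly genes, which supply the clusters of the matrix arm, 4 fell and 1 rose. Iscu, the scaffold protein, measured 98.4 ± 6.96 CPM in the GSDMD-NT Alb-cre livers and 139 ± 11.8 CPM in controls (-0.50 ± 0.11, adjusted p = 0.011), and Isca2 and Hscb also fell, as did Fdxr (-0.66 ± 0.20, adjusted p = 0.0374). Iba57 rose (0.83 ± 0.14, adjusted p = 0.00507). With the length correction Isca2 and Hscb were no longer called (adjusted p = 0.588 and 0.102), and 1 gene of the list was called lower without GSDMD-NT Alb-cre 1 or 5 or control 2 or 4.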

How the data were processed

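The authors deposited raw, whole-number gene counts, not normalized, for 18954 genes in 9 livers. Per the submitters' processing notes, fastp 0.23.2, HISAT2 2.1.0 and build GRCm39 were used. The libraries were strand-specific, rRNA-depleted and paired-end, per the labels' protocols. The counting tool, strand setting and annotation release remain not given in the sources used here.

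Groups came from the sample titles. Genes passing edgeR's filterByExpr were scaled by TMM and tested by group in edgeR 4.0.16 (R 4.3.3) with the quasi-likelihood test, Benjamini-Hochberg adjustment over 14004 genes and a threshold of 0.05. Each SE was computed from the fold change and its F statistic. The steps were also run on simulated counts, drawn independently for each gene, with any dependence on length set on the whole GSDMD-NT Alb-cre group. That run does not cover shifts shared by many genes in single livers.

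Lengths (medians over GENCODE transcripts) and copies (blastn 2.17.0, at least 95% identity over 100 bases) were taken from build GRCm38. Alternatives used DESeq2 1.42.0, limma 3.58.1, other scalings and filters, left-out livers, a replicate block and a length correction (lowess, span 0.3). The members and lists were chosen with earlier results of these data known. Full statistics went to called members (the 6 with the smallest adjusted p among nuclear subunits), all mt-Nd genes, and the 3 most abundant and the most changed member of each class, and other values are given for the rest. The values of 1 nuclear subunit, which the counts include, are not reported here. The labels give no batch. Figures were drawn with matplotlib 3.10.9.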

Additional observations from a re-analysis of the deposited data

Results flagged for a closer look

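Of 110 groups of 4 or 5 livers checked over the tested members, 4 held a liver far from the others of its group, and chance alone marks about 1 group in 20. Ndufb5, a membrane arm subunit, measured 33.0 CPM in GSDMD-NT Alb-cre 1, while the other 4 GSDMD-NT Alb-cre livers measured 37.4 to 38.8 CPM. mt-Nd1 measured 5869 CPM in GSDMD-NT Alb-cre 3, while the other 4 measured 4369 to 4766 CPM. The assembly factor Ndufaf7 measured 18.1 CPM in control 1, while the other 3 controls measured 13.8 to 14.3 CPM. Ndufaf8, the partner of Ndufaf5, measured 11.3 CPM in control 3, while the other 3 controls measured 14.5 to 14.6 CPM.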

How the results depend on the processing

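The number of nuclear subunits called lower, 24 in the main comparison, was 8 to 24 when each liver was left out in turn. The fit without control 3 called 24, of which 23 were among the original 24. The number was 14 with the replicate block, 6 with the length correction and 0 with both together. It was 0 without controls 2 and 4 and 0 in the test against a 1.5-fold change. The number of assembly factors called lower, 1 in the main comparison, was 0 to 1 with livers left out and 2 in DESeq2. It was 0 with library totals alone, with no low-count filter, with the 1.5-fold test, with the replicate block, with the length correction, with both together and without controls 2 and 4. The mt-Nd genes called lower, 0 in the main comparison, numbered 2 in DESeq2 and 0 to 1 with livers left out (mt-Nd2 without GSDMD-NT Alb-cre 3, mt-Nd3 without control 1). The other scalings and filters changed no direction of the members named with full statistics. Of all genes, 1296 were higher and 1270 lower, and leaving out livers gave 567 to 1339 higher and 625 to 1184 lower. The 1.5-fold test gave 36 and 58, the block with length correction 643 and 655, and the fit without controls 2 and 4 gave 29 and 44. The block alone gave 920 higher and 817 lower, and DESeq2 gave 1731 higher and 1653 lower.

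The mean difference of nuclear subunits was -0.21 with the length correction, -0.20 with the replicate block and length correction, and -0.25 without controls 2 and 4, beside -0.40. That of assembly factors was -0.046 with the length correction and -0.036 with the block added, beside -0.15. That of mt-Nd genes was -0.081 with the length correction, -0.12 with the block added, -0.13 without control 4 and -0.029 without controls 2 and 4, beside -0.28. Among the members given full statistics, signs turned for mt-Nd4l, mt-Nd6, mt-Nd5, Ndufaf4 and mt-Nd4. mt-Nd4l was -0.10 with the block and ran from -0.072 to 0.38 with livers left out. mt-Nd6 was 0.065 with the length correction, 0.086 with the block added and 0.17 without controls 2 and 4. mt-Nd5 was 0.021 with the length correction, 0.21 without controls 2 and 4, and -0.11 to 0.10 with livers left out. Ndufaf4 was -0.0013 with the length correction, and mt-Nd4 was 0.0049 without controls 2 and 4. The cause of these changes was not tested. Fits that left out livers also had fewer livers to compare, and the part of that was not tested either.

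The labels state no pairing of the livers. Deviations of same-numbered livers correlated at 0.07, -0.01, 0.12 and 0.16 across genes. Only GSDMD-NT Alb-cre 4 matched its same-numbered control best. These weak correlations cannot exclude a pairing, and pairs by other numbers were not checked. The block uses only livers 1 to 4 of each group. With 13361093 to 16823506 counts per liver, depth limits Ndufb4c, Ndufb2 and Ndufa4l2 most.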
